A study of Mus musculus with 18 samples.

Results

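The 10 genes described here are those whose symbol in the deposited expression table is Hamp, Hamp2, Tfrc, Tfr2, Slc40a1, Slc11a2, Fth1, Ftl1, Hfe or Trf, out of 37303 genes listed. They encode hepcidin and the proteins that sense, carry, import, store and export iron in the liver. The rule that selects them uses the symbol alone, though the list of names was drawn up with earlier results of these data known. Expression was measured by RNA-Seq of poly-A RNA from the livers of 18 mice, in 6 groups of 3. The groups were wild type (WT) mice, mice lacking Gcn2 in every tissue (Gcn2-/-) and mice lacking Atf4 in every tissue (Atf4-/-), each injected intraperitoneally once a day for 8 days with asparaginase (ASNase) at 3 IU per gram body weight or with an equal volume of phosphate buffered saline (PBS). ASNase is an enzyme drug that depletes asparagine and glutamine in blood, GCN2 is a kinase that responds to scarce amino acids, and ATF4 is a transcription factor made when that response is on. All mice were on the C57BL/6J background for 8 generations or more. Livers were taken 7.5 h after the last injection according to the sample labels. Age was 8 to 16 weeks in the sample labels and 8 to 12 weeks in the design text. The sexes were mixed unevenly: the labels name 1 male among 3 mice for WT PBS, Gcn2-/- PBS and Gcn2-/- ASNase, and 2 males among 3 for the other groups.

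Liver controls the iron content of the blood through hepcidin, a peptide hormone of hepatocytes that binds the iron exporter ferroportin and sends it for degradation. Hepatocytes raise hepcidin transcription through bone morphogenetic proteins (BMPs) and SMAD factors when iron is plentiful, and through interleukin-6 (IL-6) and STAT3 during inflammation. A second layer acts on messenger RNA: iron regulatory proteins bind a short hairpin, the iron responsive element, which blocks translation when it lies in the 5' UTR and slows decay when it lies in the 3' UTR.

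Each value was an FPKM, a count of sequenced fragments scaled to library size and to transcript length, so that genes can be compared within a group. The table held 1 FPKM per group, estimated by Cuffdiff from the 3 livers together, with an interval around it and a status. Values of single mice were not used here, so there is no SD and no replicate check, and p-values cannot be given. The interval served as the error. Among genes over 3 FPKM the median distance from value to bound was between 51.3% and 54.2% of the value in the 6 groups, so that only large differences could be told from this error. The deposited table carries no read totals of the libraries, and none are given here. A change between 2 groups was called under 4 conditions: both estimates had status OK and exceeded 0, at least 1 of them was over 3 FPKM, log2(FPKM + 0.1) differed by over 1.5 in either direction, and the intervals were separate. The words rose and fell are kept for such calls.

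Facts of the whole table that touch the comparisons were the following. Markers of hepatocytes, the main cell of the labelled tissue, were abundant: 7 of 8 had an estimate in every group, with summed levels of 6840 to 16539 FPKM, while Alb had no estimate in any group. The 10 markers of skeletal muscle summed to 788 FPKM in WT PBS and 1124 in WT ASNase, against 5.95 and 9.02 in Gcn2-/- liver and 62.8 and 133 in Atf4-/- liver. Every comparison of a knockout with WT therefore also compared livers with little and with more muscle RNA. The part of muscle RNA in the values of the iron genes was not tested. Eif2ak4, which encodes GCN2, had 3.04 and 2.39 FPKM in WT and 2.31 and 2.96 in Gcn2-/- liver (PBS and ASNase), and Atf4 had 50.4 and 63.1 in WT and 32.3 and 29.3 in Atf4-/- liver. Gene-level values such as these cannot check an allele that still gives part of its transcript.

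Of the 10 genes, 9 had the status OK in all 6 groups and passed the limit of 3 FPKM in every comparison. Trf, which encodes transferrin, the iron carrier of plasma, had the status HIDATA in all 6 groups and is listed at 0. That status means that Cuffdiff gave no estimate because of too much data at the locus, so the listed 0 is not a level. The gene (ENSMUSG00000032554) lies at chr9:103204001-103230444 on the minus strand, and the same status stood at its table neighbours Srprb and Gm20425, which share the locus. Transferrin is therefore not described further.

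The Hamp and Hamp2 genes lie close together on the minus strand of chromosome 7, at chr7:30942368-30944032 (ENSMUSG00000050440) and chr7:30922372-30924681 (ENSMUSG00000056978) on GRCm38 (mm10). Their promoters are shown because the levels of this pair, described next, had unlike patterns over the groups while the sequences are nearly the same. Each run gives the 250 bases upstream of the start site in RefSeq (GRCm38), at chr7:30944030-30944279 for Hamp and chr7:30924182-30924431 for Hamp2, both 5' to 3' on the minus strand. The gene spans above are those of GENCODE. For Hamp2 that span begins upstream of the RefSeq start and takes in the whole run shown. Capitals mark the core of a BMP responsive element, GGCGCC, and a STAT site, TTCNNNGAA.
Hamp: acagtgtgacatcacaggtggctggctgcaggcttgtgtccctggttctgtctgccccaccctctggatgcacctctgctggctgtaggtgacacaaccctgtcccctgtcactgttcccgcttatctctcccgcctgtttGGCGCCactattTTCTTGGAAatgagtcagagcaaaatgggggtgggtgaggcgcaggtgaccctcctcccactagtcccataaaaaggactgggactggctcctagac
Hamp2: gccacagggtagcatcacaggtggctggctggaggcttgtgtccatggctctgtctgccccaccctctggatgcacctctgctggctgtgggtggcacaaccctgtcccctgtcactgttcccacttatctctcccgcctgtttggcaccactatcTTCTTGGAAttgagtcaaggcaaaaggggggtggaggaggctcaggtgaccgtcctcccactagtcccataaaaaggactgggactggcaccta
Of 247 aligned bases 227 (91.9%) were identical. The STAT site was TTCTTGGAA in both, at -97 to -89 from the start in Hamp and at -94 to -86 in Hamp2. GGCGCC stood at -109 to -104 in Hamp. The aligned bases of Hamp2 are GGCACC, which is the substitution G4A counted from 1 at the 5' end of the element. On either strand, GGCGCC occurred in 9.59% of the 32851 RefSeq promoters of this length, and TTCNNNGAA in 7.02%. Promoters were found for 7 of the 10 genes, and not for Slc40a1, Slc11a2 or Trf. Besides Hamp, only Tfrc among the 7 held GGCGCC, at -89 to -84. The core of the C/EBP-ATF response element, TGATGNAA, bound by ATF4 dimers, occurred in 3.45% of all promoters and in 0 of the 7. A match of letters is a description and not a shown binding site.

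Hamp, the gene of hepcidin, had 2402 FPKM in WT PBS liver (interval 1170 to 3634) and 2230 in WT ASNase liver (1139 to 3321). In Gcn2-/- liver it stood at 4466 (1854 to 7078) with PBS and at 11558 (2360 to 20755) with ASNase. In Atf4-/- liver it stood at 2314 (1129 to 3499) with PBS and at 11472 (3420 to 19524) with ASNase. The 2 knockout groups given ASNase thus stood above the other 4 by value, and hepcidin was there the 5th highest by FPKM of the genes with an estimate, against rank 30 in WT PBS and rank 34 in WT ASNase. The ranks leave out genes with no estimate, among them Alb and Trf in every group and Hpx and Hp in the knockouts given ASNase, which numbered 35 and 32 in the WT groups and 18 and 20 in Gcn2-/- and Atf4-/- ASNase liver. Their intervals were also the widest in FPKM.

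Under ASNase, Hamp was 5.14 times as high in Atf4-/- as in WT liver, a log2 difference of 2.36 ± 1.23 (combined error of the interval bounds). The intervals were separate by a narrow gap, 3420 against 3321, and this was the 1 iron gene of 9 called in that comparison, in which 8.25% of all genes tested were called. After rescaling of the groups to their median ratio, the difference was 2.30 and the intervals overlapped, so the call was lost. Against WT under ASNase, Hamp in Gcn2-/- liver was 5.18 times as high (2.37 ± 1.35), but its interval overlapped that of WT, and 0 of 9 iron genes were called where 4.41% of all genes were. The 2 knockouts differed by -0.01 ± 1.53 under ASNase, with Atf4-/- minus Gcn2-/- as the direction, an error that leaves room for differences of more than 2-fold either way. In that comparison 3.19% of all genes and 0 of 9 iron genes were called.

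The response of Hamp to ASNase within a strain was -0.11 ± 1.02 on the log2 scale in WT liver, 1.37 ± 1.42 in Gcn2-/- liver and 2.31 ± 1.25 in Atf4-/- liver. The value after ASNase was 2.59 times that under PBS in Gcn2-/- liver and 4.96 times in Atf4-/- liver. Neither was called, since the intervals overlapped, in Atf4-/- liver only between 3420 and 3499 FPKM. When the difference in FPKM was instead set against the root of the summed squared distances from value to bound, both the Atf4-/- response and Gcn2-/- against WT under ASNase passed. The response in Atf4-/- liver exceeded that in WT liver by 2.42 ± 1.62, and the response in Gcn2-/- liver exceeded that in WT by 1.48 ± 1.75, which is within its error. These responses were not tested against each other, as there is 1 value per group. In bulk liver a change in the share of hepatocytes and a change in RNA per hepatocyte cannot be told apart.

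**Figure D1:**
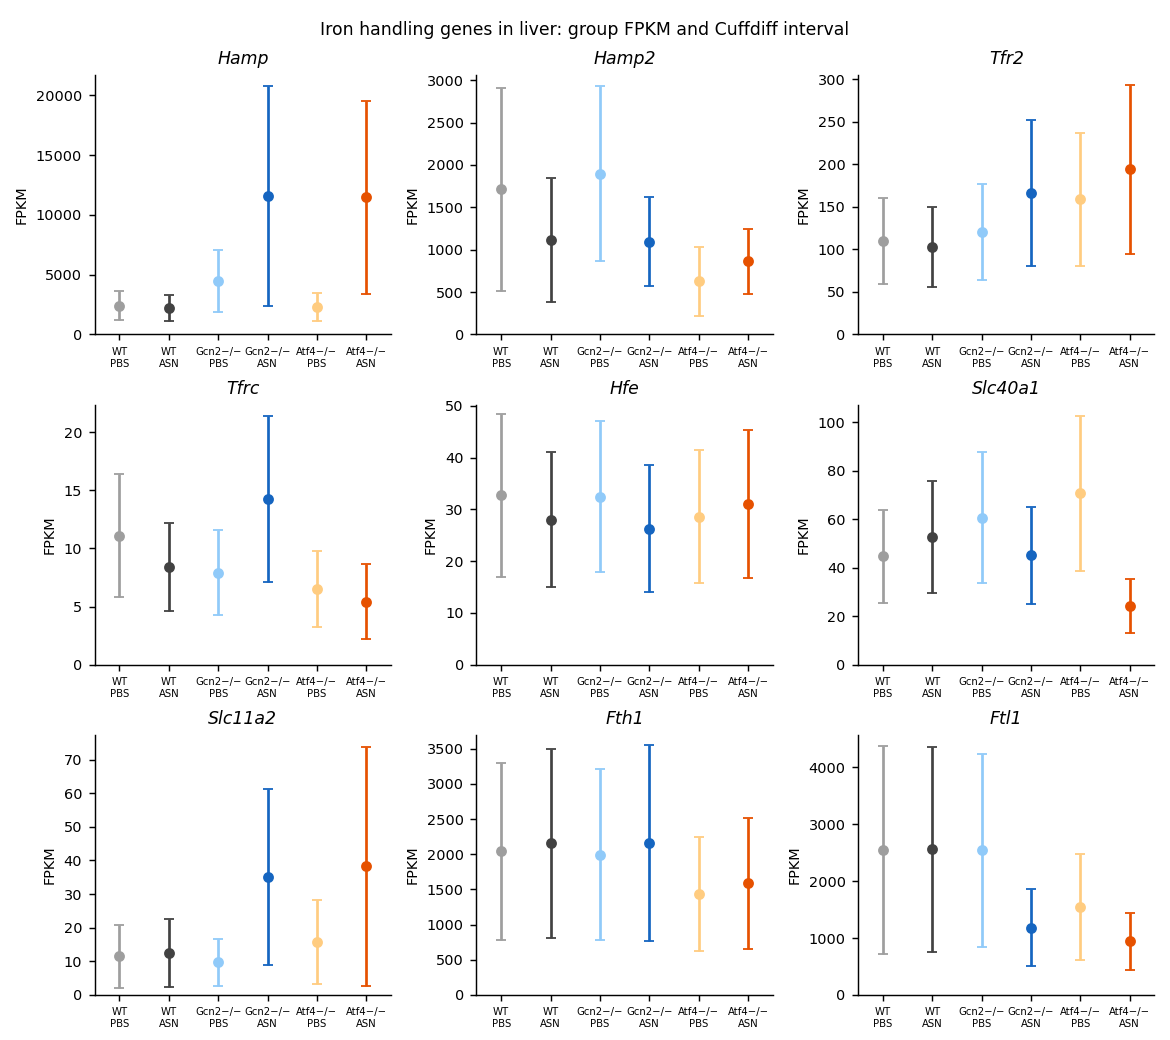
FPKM of the 9 iron genes with an estimate, by strain and treatment (ASN, ASNase). Points are the Cuffdiff value of a group of 3 livers, bars its lower and upper bound, and each vertical axis starts at 0. Hamp reached 11558 and 11472 in the knockout groups given ASNase, and Slc40a1 was lowest, at 24.2, in Atf4-/- ASNase liver.

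Hamp2, a mouse paralog of hepcidin whose role in iron balance is less clear, had a different pattern. It had 1714 FPKM (517 to 2910) in WT PBS, 1114 (387 to 1840) in WT ASNase, 1898 (865 to 2930) in Gcn2-/- PBS, 1092 (567 to 1617) in Gcn2-/- ASNase, 625 (214 to 1036) in Atf4-/- PBS and 861 (479 to 1243) in Atf4-/- ASNase. All neighbours in this order of levels overlapped, as did the highest and the lowest. ASNase minus PBS came to -0.62 ± 1.38 (log2) for WT, -0.80 ± 1.05 for Gcn2-/- and 0.46 ± 1.14 for Atf4-/- liver. The largest difference between PBS groups among the iron genes was that of Hamp2 in Atf4-/- against WT liver, -1.45 ± 1.38, which was under the limit of 1.5. The ratio of Hamp to Hamp2 under PBS was 1.40 ± 1.21 for WT, 2.35 ± 1.88 for Gcn2-/- and 3.70 ± 3.08 for Atf4-/- liver. After ASNase it was 2.002 ± 1.63 for WT liver, and it was 10.6 ± 9.84 and 13.3 ± 11.1 in Gcn2-/- and Atf4-/- liver given ASNase.

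These values carry a limit from sequence and a limit from the mix of sexes. The 410 bases of the Hamp transcript were 94.6% identical to Hamp2 in GENCODE (release M21, GRCm38), and 144 of the 311 stretches of 100 bases in Hamp, the length of the reads, also fit Hamp2 with at most 2 mismatches. How reads of such stretches were divided between the paralogs is not known from the table, and the level of either is uncertain to that extent. Hamp2 is known for its higher expression in female than in male mouse liver. The values of Ddx3y, a gene of the Y chromosome, were 5.62, 6.20 and 5.88 FPKM in the 3 groups with 1 male (WT PBS, Gcn2-/- PBS and Gcn2-/- ASNase) and 11.6, 11.4 and 14.2 in the 3 groups with 2 males. Wherever a group with 1 male is set against a group with 2, treatment or genotype and the sex of the mice cannot be told apart, for Hamp2 as for the other genes. The mix was the same, 2 males of 3, in the Atf4-/- and WT groups given ASNase, between which Hamp was called.

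The receptors that inform hepcidin were called in none of the 8 comparisons, in which 0.881% to 8.25% of all genes were called. Tfr2 (ENSMUSG00000029716, chr5:137569840-137587481), transferrin receptor 2, by which hepatocytes sense loaded transferrin, had 110 FPKM (59.1 to 161) in WT PBS, 103 (55.6 to 149) in WT ASNase, 120 (63.8 to 177) in Gcn2-/- PBS, 167 (80.8 to 252) in Gcn2-/- ASNase, 159 (81.1 to 237) in Atf4-/- PBS and 195 (95.2 to 294) in Atf4-/- ASNase. All 6 intervals overlapped, and the highest value was 1.90 times the lowest. Hfe (ENSMUSG00000006611, chr13:23702034-23710854), the hemochromatosis protein that binds transferrin receptors, was the most even of the 9 genes, between 26.2 FPKM in Gcn2-/- ASNase and 32.7 in WT PBS, a ratio of 1.25.

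Tfrc (ENSMUSG00000022797, chr16:32608920-32632794), transferrin receptor 1, the general import receptor for iron-loaded transferrin, was much lower than Tfr2 in every group. It had 11.1 FPKM (5.79 to 16.4) in WT PBS, 8.39 (4.61 to 12.2) in WT ASNase, 7.92 (4.26 to 11.6) in Gcn2-/- PBS, 14.3 (7.10 to 21.4) in Gcn2-/- ASNase, 6.50 (3.23 to 9.76) in Atf4-/- PBS and 5.41 (2.2 to 8.62) in Atf4-/- ASNase. The log2 response to ASNase reached -0.40 ± 0.94 for WT, 0.84 ± 0.97 for Gcn2-/- and -0.26 ± 1.1 for Atf4-/- liver, each within its error. The extremes of the order were the knockouts given ASNase, 2.63 times apart, at -1.38 ± 1.11 for Atf4-/- against Gcn2-/-, and their intervals overlapped. The ratio of Tfr2 to Tfrc was 9.91 ± 6.60 in WT PBS and 36.0 ± 28.1 in Atf4-/- ASNase, the lowest and the highest of the 6.

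Erythroid cells carry much Tfrc, and their markers moved with the groups. The summed level of 10 erythroid genes under PBS was 288 FPKM for WT, 164 for Gcn2-/- and 242 for Atf4-/- liver. After ASNase it was 159 FPKM for WT liver, but 14.1 in Gcn2-/- and 11.4 in Atf4-/- liver given ASNase. The globins Hbb-bs, Hbb-bt, Hba-a1 and Hba-a2, 4 of the 10, fell after ASNase in both knockouts, and 0 of 10 were called in WT. The genes past the limit on low values were 5 in Gcn2-/-, 6 in Atf4-/- and 5 in WT liver, and the shares of all genes called were 3.69%, 7.37% and 0.881%. Gata1 and Epb42 were at or near 0 in every group. Tfrc was highest in 1 of the 2 groups with few globin transcripts and lowest in the other. Markers of dividing cells, which also carry Tfrc, were low, with 8 genes summing to 12.4 and 12.6 FPKM for WT, 10.5 and 6.77 for Gcn2-/- and 5.47 and 3.15 for Atf4-/- liver (PBS and ASNase). The part of blood or dividing cells in the Tfrc values was not tested.

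Iron responsive elements were searched in protein-coding transcripts of GENCODE on the transcript strand, as the loop letters CAGTGN closed by 5 paired bases, with an unpaired C on the 5' side below them and at least 4 of 5 pairs in the lower stem. Such hairpins occurred in 24 of 21877 genes (0.11%) and in 4 of the 10 iron genes, and they are shown because they are the control that the storage, export and uptake genes share. In the 5' UTR of Fth1, Ftl1 and Slc40a1 this control acts on translation, which a transcript level does not report. Capitals mark the loop, CAGTG and the base after it, and each run is 29 bases on the strand of its gene.
Fth1: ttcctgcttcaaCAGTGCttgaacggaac
Ftl1: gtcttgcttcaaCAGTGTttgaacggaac
Slc40a1: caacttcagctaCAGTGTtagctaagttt
Tfrc, site 1: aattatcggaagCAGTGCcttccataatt
Tfrc, site 2: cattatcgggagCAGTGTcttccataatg
The first lies in the 5' UTR of Fth1 at chr19:9982732-9982760 (plus strand), the second in the 5' UTR of Ftl1 at chr7:45459779-45459807 (minus), and the next in the 5' UTR of Slc40a1 at chr1:45925465-45925493 (minus). The Tfrc hairpins lie in its 3' UTR on the plus strand of chromosome 16, and the 2 shown start at 32631219 and 32631598, with further matches at 32631663 and 32631710. All lie within a single exon. A hairpin with these letters and pairs was not found in Slc11a2, from which nothing follows about its control.

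The ferritin genes, whose proteins form the shell that stores iron, had unequal values after ASNase. Fth1, the heavy chain (ENSMUSG00000024661, chr19:9980598-9985098), had 2040 FPKM (785 to 3294) in WT PBS, 2154 (814 to 3495) in WT ASNase, 1991 (776 to 3207) in Gcn2-/- PBS, 2157 (765 to 3549) in Gcn2-/- ASNase, 1433 (628 to 2238) in Atf4-/- PBS and 1586 (656 to 2516) in Atf4-/- ASNase. Its response to ASNase was 0.08 ± 1.26, 0.12 ± 1.28 and 0.15 ± 1.17 in WT, Gcn2-/- and Atf4-/- liver. Fth1 was thus at a like level in all groups by value, though its error would allow a change of 2-fold.

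Ftl1, the light chain (ENSMUSG00000050708, chr7:45457944-45459884), had 2550 FPKM (726 to 4375) in WT PBS, 2563 (762 to 4364) in WT ASNase and 2540 (848 to 4232) in Gcn2-/- PBS. It had 1183 (507 to 1859) in Gcn2-/- ASNase, 1552 (619 to 2486) in Atf4-/- PBS and 943 (439 to 1446) in Atf4-/- ASNase. The log2 response of the light chain reached 0.01 ± 1.45 for WT, -1.1 ± 1.27 for Gcn2-/- and -0.72 ± 1.16 for Atf4-/- liver, and all intervals overlapped. The ratio of heavy to light chain was 0.80 ± 0.75, 0.84 ± 0.79, 0.78 ± 0.71 and 0.92 ± 0.76 in the WT PBS, WT ASNase, Gcn2-/- PBS and Atf4-/- PBS groups, and 1.82 ± 1.57 and 1.68 ± 1.34 in Gcn2-/- and Atf4-/- liver given ASNase. The heavy chain outnumbered the light chain by value in those 2 groups and in no other, within errors that overlap throughout.

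Slc40a1, ferroportin, the iron exporter that hepcidin removes from the cell surface (ENSMUSG00000025993, chr1:45908068-45926523), fell after ASNase in Atf4-/- liver. It had 44.7 FPKM (25.5 to 63.8) in WT PBS, 52.7 (29.7 to 75.8) in WT ASNase, 60.6 (33.6 to 87.6) in Gcn2-/- PBS, 45.2 (25.1 to 65.2) in Gcn2-/- ASNase, 70.7 (38.8 to 103) in Atf4-/- PBS and 24.2 (13.2 to 35.3) in Atf4-/- ASNase. The PBS group of the Atf4-/- strain was the highest of the 6 and its ASNase group the lowest, and only these 2 intervals were separate within a strain. The value under PBS was 2.92 times that after ASNase, a log2 response of -1.54 ± 0.92, just past the limit of 1.5. It was the 1 iron gene of 9 called in that comparison, in which 7.37% of all genes were called. The response was 0.24 ± 0.88 in WT and -0.42 ± 0.91 in Gcn2-/- liver, where 0 of 9 iron genes were called against 0.881% and 3.69% of all genes. The Atf4-/- response lay below that of WT by -1.78 ± 1.28 and below that of Gcn2-/- by -1.12 ± 1.29, the latter within its error. Against WT under ASNase the Atf4-/- level differed by -1.12 ± 0.91 and was not called.

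**Figure D2:**
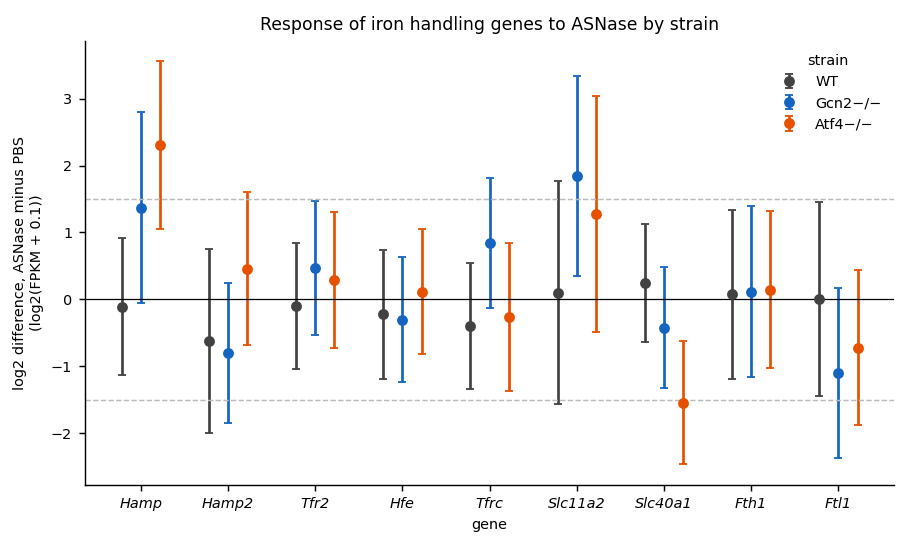
Difference of log2(FPKM + 0.1) between ASNase and PBS for 9 iron genes in WT, Gcn2-/- and Atf4-/- liver. Points are differences of 1 group value each, bars the combined error of the Cuffdiff bounds, and dashed lines the limit of 1.5 in either direction. The Atf4-/- points are highest for Hamp, at 2.31, and lowest for Slc40a1, at -1.54.

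Ferroportin is abundant in Kupffer cells, the macrophages of liver, which recycle iron from red cells, and their markers moved in both directions. The summed level of 9 Kupffer genes was 245, 138, 165, 232, 283 and 176 FPKM in the order WT PBS, WT ASNase, Gcn2-/- PBS, Gcn2-/- ASNase, Atf4-/- PBS and Atf4-/- ASNase. After ASNase in Atf4-/- liver, 7 of 9 had lower values, with a median difference of -0.97 against 0.08 over all genes, and 2 of 9 were called beside 7.37% of all genes: Cd5l fell from 91.6 to 31.3 FPKM while Marco, a scavenger receptor, rose from 9.22 to 67.3. In Gcn2-/- liver Marco rose from 8.32 to 118 and Spic, a factor of iron-recycling macrophages, from 1.70 to 8.72, 2 of 9 genes called beside 3.69% of all genes, while the median difference was 0.43. In WT liver 0 of 9 were called beside 0.881% of all genes, and the median was -0.73 over the 8 genes past the limit on low values. Slc40a1 was not called there either. The markers Clec4f, Vsig4 and Cd5l had lower values after ASNase in every strain. They were the only 3 of the 9 markers with lower values in Gcn2-/- liver, where 6 had higher values. Clec4f differed by -0.88 ± 1.27 (WT), -2.08 ± 1.62 (Gcn2-/-) and -1.76 ± 1.33 (Atf4-/-). Intervals of Clec4f and Vsig4 overlapped within each strain. The part of Kupffer cells in the fall of Slc40a1 was not tested.

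**Figure D3:**
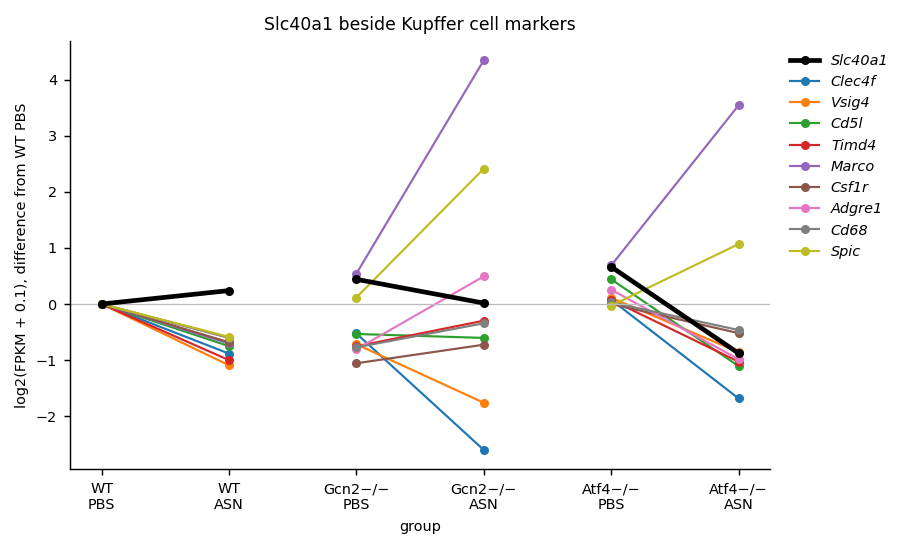
Log2(FPKM + 0.1) of Slc40a1 (black) and of 9 Kupffer cell markers (colours), as the difference from WT PBS, with a line from PBS to ASNase within each strain. In Atf4-/- liver Slc40a1 ran with 7 markers that had lower values, while Marco, which rose, and Spic, whose intervals overlapped, ran upward. No errors are drawn.

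Slc11a2, the divalent metal transporter DMT1 that brings iron out of endosomes and across the cell membrane (ENSMUSG00000023030, chr15:100387898-100425072), had its highest values in the knockouts given ASNase, with wide intervals. It had 11.5 FPKM (2.02 to 20.9) in WT PBS, 12.3 (2.2 to 22.4) in WT ASNase, 9.69 (2.62 to 16.8) in Gcn2-/- PBS, 35.0 (8.83 to 61.2) in Gcn2-/- ASNase, 15.7 (3.10 to 28.3) in Atf4-/- PBS and 38.3 (2.72 to 73.8) in Atf4-/- ASNase. The log2 response of Slc11a2 reached 0.10 ± 1.66 for WT, 1.84 ± 1.5 for Gcn2-/- and 1.28 ± 1.76 for Atf4-/- liver. The Gcn2-/- response was larger than the limit of 1.5 and than its combined error on the log2 scale, but the intervals overlapped and no call was made. The gene Gm5475 shares the locus in the table, at no more than 0.06 FPKM.

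Under PBS no iron gene was called between strains. In Gcn2-/- against WT liver 0 of 9 iron genes were called, with 1.04% of all genes called, and in Atf4-/- against WT liver 0 of 9, with 1.12%. Both comparisons share the WT PBS group. Hamp in Gcn2-/- PBS liver was 1.86 times the WT value (0.89 ± 1.12), and in Atf4-/- PBS liver it differed from WT by -0.05 ± 1.05. Over the 9 genes the median difference was -0.01 in Gcn2-/- and -0.19 in Atf4-/- liver, against 0.06 and 0.00 over all genes tested. The median response of these genes to ASNase reached -0.10 for WT, 0.12 for Gcn2-/- and 0.15 for Atf4-/- liver, against -0.01, 0.02 and 0.08 over all genes tested.

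Among 18 genes of BMP-SMAD control of hepcidin, 0 were called after ASNase in WT, 0 in Gcn2-/- and 2 in Atf4-/- liver, with 14, 13 and 14 of the 18 past the limit on low values. Over all genes tested 0.881%, 3.69% and 7.37% were called, so these counts are near the background. Their median responses were 0.17, 0.10 and 0.18 on the log2 scale. Tmprss6, a membrane protease that cleaves the BMP co-receptor and so holds hepcidin down, fell in Atf4-/- liver from 167 FPKM (83.9 to 250.3) to 50.9 (28.3 to 73.6), a response of -1.71 ± 0.96. It had 148 and 131 in WT PBS and ASNase and 146 and 62.5 in Gcn2-/- PBS and ASNase, where the response of -1.23 ± 0.97 was not called. Id1, a SMAD target, rose in Atf4-/- liver from 8.09 (3.70 to 12.5) to 26.0 (13.9 to 38.0), a response of 1.67 ± 1.02, and had 13.5 and 28.1 in Gcn2-/- liver and 7.99 and 11.7 in WT liver. In both knockouts given ASNase, Hamp and Id1 had their highest values and Tmprss6 its lowest. Of these responses to ASNase, only those of Id1 and Tmprss6 in Atf4-/- liver were called. The part of BMP-SMAD control in the Hamp values was not tested.

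Fgl1, a secreted liver protein known to blunt BMP signalling, had 289 and 223 FPKM in WT liver, 563 and 2960 in Gcn2-/- liver and 1005 and 3092 in Atf4-/- liver (PBS and ASNase). It was called higher than WT under ASNase in both knockouts, at 3.73 ± 1.25 and 3.79 ± 1.33. Of genes named after their values were seen, the SMAD target Atoh8 was not called. It had 9.37 and 7.12 FPKM in WT, 7.32 and 13.9 in Gcn2-/- and 7.40 and 16.3 in Atf4-/- liver. Smad7, of the same list and also uncalled, had log2 responses of 0.51 in WT, 0.73 in Gcn2-/- and -0.13 in Atf4-/- liver. The ligands of the pathway had low levels, Bmp6 between 0.97 and 2.47 FPKM and Bmp2 between 2.87 and 7.28. They come largely from sinusoidal endothelium, whose 8 markers summed to between 97.5 FPKM in Gcn2-/- PBS and 154 in Atf4-/- PBS. Of these markers 0 of 8 were called in any of the 8 comparisons, beside 0.881% to 8.25% of all genes. In Gcn2-/- against WT liver under PBS, 7 had lower values and 1 a higher value, with a median of -0.96 against 0.06 over all genes. Under ASNase 6 were lower and 2 higher, with a median of -0.77 against 0.05. Erfe, the erythroid hormone that lowers hepcidin, reached 0.13 FPKM at most.

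**Figure D4:**
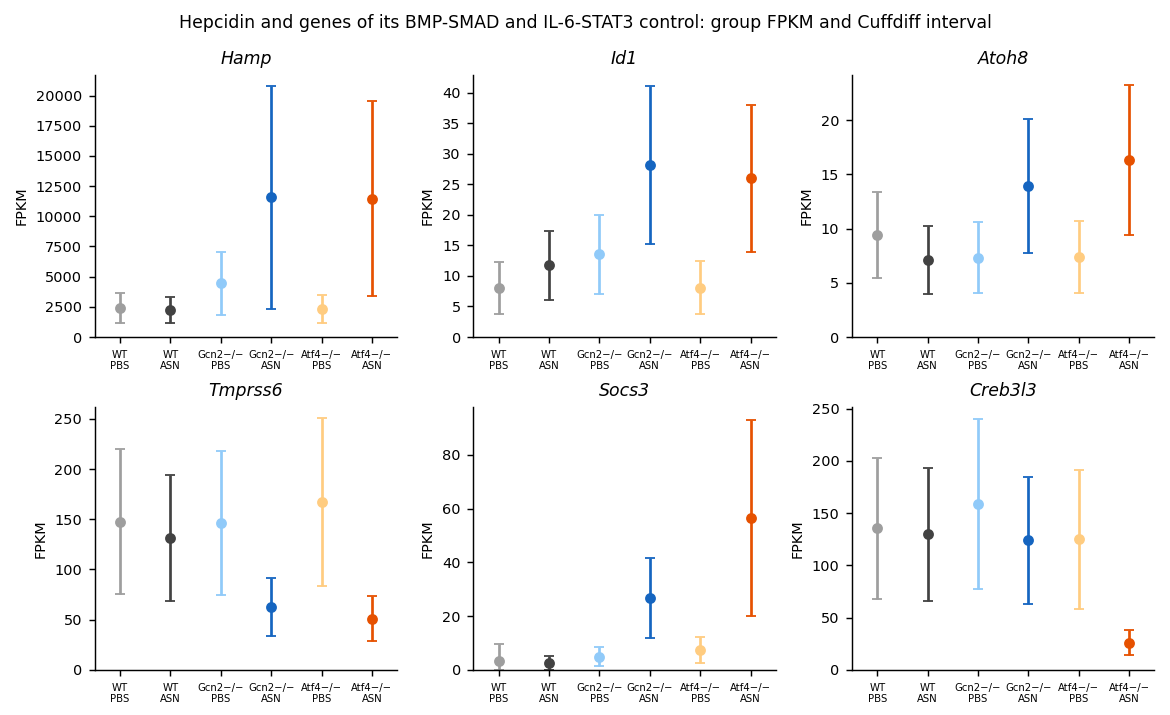
FPKM of Hamp and of 5 genes of its control by strain and treatment (ASN, ASNase), with the Cuffdiff bounds as bars and every axis from 0. After ASNase in Atf4-/- liver Id1 and Socs3 rose and Tmprss6 and Creb3l3 fell, while Atoh8 was not called in any comparison.

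Among 9 genes of IL-6-STAT3 control, 0 were called after ASNase in WT, 1 in Gcn2-/- and 2 in Atf4-/- liver, with 8 past the limit on low values, where 0.881%, 3.69% and 7.37% of all genes tested were called. Their median responses were 0.07, 0.26 and 0.20. Socs3, an inhibitor that STAT3 induces, rose in Gcn2-/- liver from 4.93 FPKM (1.43 to 8.44) to 26.8 (11.9 to 41.7) and in Atf4-/- liver from 7.23 (2.40 to 12.1) to 56.6 (20.1 to 93.1), and had 3.36 and 2.57 in WT liver. Creb3l3, a liver transcription factor that can activate hepcidin, fell in Atf4-/- liver from 125 (58.2 to 192) to 26.0 (14.0 to 38.1), and had 159 and 124 in Gcn2-/- liver. Creb3l3 was also lower in Atf4-/- liver than in Gcn2-/- liver under ASNase, at -2.25 ± 0.97. Cebpa, a factor needed for hepcidin transcription, was not called in any strain, with responses of 0.12 ± 0.96, -1.27 ± 0.996 and -1.22 ± 0.96 in WT, Gcn2-/- and Atf4-/- liver. Il6 itself was under 1 FPKM in every group. The part of IL-6-STAT3 control in the Hamp values was not tested.

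Of 7 genes of iron sensing and ferritin turnover, 0 were called in any comparison, with 6 past the limit on low values and at most 8.25% of all genes called, and the median responses to ASNase were 0.14, -0.41 and -0.01 in WT, Gcn2-/- and Atf4-/- liver. The highest were Pcbp1, an iron chaperone, at 96.6 FPKM in WT PBS, and Aco1, iron regulatory protein 1, at 65.7, whose responses in Atf4-/- liver were 0.87 ± 0.91 and -1.06 ± 1.03. Of 16 genes of iron transport and reduction, 12 past the limit on low values in the knockouts, 1 was called in each, beside 3.69% and 7.37% of all genes. This was Steap4, a metal reductase, which rose from 41.1 FPKM (23.0 to 59.2) to 624 (199 to 1048) in Gcn2-/- and from 59.1 (30.9 to 87.2) to 490 (101 to 879) in Atf4-/- liver. The median responses of the 11 or 12 genes past the limit on low values were -0.14, -0.17 and 0.07. Cp, the plasma ferroxidase ceruloplasmin, had 490 FPKM in WT PBS and 3336 and 3400 in the knockouts given ASNase, with lower bounds of 0. Lrp1, the receptor for heme bound to hemopexin, was at 138 FPKM in WT PBS and was not called.

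Of 9 genes of heme and hemoglobin clearance, 1 was called after ASNase in each knockout and 0 in WT, beside 3.69%, 7.37% and 0.881% of all genes. Only 5 of the 9 could be called in the knockouts and 7 in WT, so the median responses of -0.12, -0.50 and 0.09 in WT, Gcn2-/- and Atf4-/- liver rest on different genes. Hmox1, heme oxygenase 1, which frees iron from heme, rose from 13.0 FPKM (7.30 to 18.8) to 40.3 (23.1 to 57.5) in Gcn2-/- and from 14.7 (8.27 to 21.0) to 55.3 (32.1 to 78.5) in Atf4-/- liver, and was 14.5 and 14.6 in WT liver. Cd163, the hemoglobin scavenger receptor of macrophages, was called higher in Atf4-/- than in WT liver under ASNase, 11.4 against 3.68 FPKM. The scavenger proteins Hpx and Hp had 2393 and 1214 FPKM in WT PBS, but no estimate in either knockout given ASNase. Since the same 2 knockout groups were compared with their own PBS groups and with WT, calls in these comparisons share samples.

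The genes with the pattern most like that of a member were found as those with the smallest root mean square difference of centred log2(FPKM + 0.1) over the 6 groups, among 10172 genes. For Hamp they were 1700024P16Rik, at 0.20, Ifitm2, Ikbke, Ppapdc1b and BC048546, at 0.28. Ifitm2, an interferon-induced membrane protein, had 270.4 FPKM in WT PBS and 1245 and 997 in Gcn2-/- and Atf4-/- liver given ASNase. For Tfrc they were 2900092E17Rik, at 0.11, Atox1, Mrap, Uck1 and Asl, at 0.16. Likeness over 6 groups that share strains and treatments is a description only.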

How the data were processed

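RNA-Seq libraries were made from poly-A RNA of 18 mouse livers, 3 per group, and sequenced as single-end reads. By the labels and the study's methods, the authors ran TopHat with Bowtie on mm10, then Cufflinks, Cuffmerge and Cuffdiff. The deposited table holds FPKM values for 37303 genes, pooled by the authors within each of 6 groups, with lower and upper bounds in FPKM and a status. All 24 value columns were mapped to groups, and 0 were left out. Depth per library is not in the table, so precision was taken from the bounds.

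Groups came from the sample labels. The 8 comparisons were made on log2(FPKM + 0.1), which understates the change of low genes, with Python 3.11.15, pandas 2.3.3 and numpy 2.4.6. The rule for calls was tried on simulated data with known changes. Those changes were larger than the ones called for the iron genes, so the trial does not cover changes of that size. The error of a log2 difference is the root of the summed squared relative distances from value to bound. No test could be run on 1 value per group. The 10 genes and all lists were chosen with earlier results of these data known. Of the other lists a gene was named when called in at least 1 comparison or among the 2 highest of its list in WT PBS. Atoh8, Smad7, Bmp2, Bmp6, Erfe, Il6 and Vsig4 were named after their values were seen. The rule for a difference in response (over its error) was likewise chosen with results known. Promoters came from RefSeq, transcripts and hairpins from GENCODE release M21, both on GRCm38. Alternatives were other pseudocounts, filters, scaling, fold limits and a combined interval.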

Additional observations from a re-analysis of the deposited data

How the results depend on the processing

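No paired analysis was possible because the table holds 1 value per group. For the same reason leaving out a replicate and the replicate block were not run. Of 432 recomputed differences of single iron genes, 429 kept their side of the limits and stayed within their error of the main value. The other 3 crossed a limit, all of them for Hamp. The 72 with no filter on low values and the 72 with FPKM over 1 could not differ from the main setting. Every iron gene with an estimate had already passed the limit of 3 FPKM in every comparison. Under the combined interval, defined below, the log2 difference was also fixed and only the call could change. The count of 429 therefore overstates how far the differences were tried. Direction was checked only for differences called in the main setting, of which 0 turned round, and differences near 0 can change sign. With the combined interval (a difference in FPKM larger than the root of the summed squared distances to the bounds), the count of iron genes called was 2 after ASNase in Atf4-/- liver and 1 in Gcn2-/- against WT liver under ASNase. With rescaling to the median ratio it was 0 in Atf4-/- against WT liver under ASNase. With no filter on low values, 124 genes were called after ASNase in WT liver, and 144 in Gcn2-/- and 153 in Atf4-/- against WT liver under PBS. Rescaling shifted the comparisons by between -0.07 and 0.01 on the log2 scale. The width of the Cuffdiff bounds limits every comparison.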
